A study of Mus musculus with 2 samples.

Results

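Mir126a and Mir126b are a pair of microRNA genes that overlap on opposite strands within Egfl7, a gene of endothelial cells, and they are 2 of the 2202 microRNA genes counted in the deposited tables. Their rows were found by identifier in the GENCODE annotation, and the pair was picked for description with earlier results of these data known. Small RNA was sequenced from gastrocnemius, a calf muscle, taken from female B6CASTF1/J mice aged 25 days; these are F1 hybrids of the C57BL/6J and CAST/EiJ strains. The 2 libraries are biological replicates 1 and 2 of 1 group, which carried no treatment, and in their labels the females have different numbers but 1 donor identifier. The spread between libraries is therefore the spread between these samples, which may be technical in part, and no comparison of conditions was possible.

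A microRNA gene is transcribed as a longer precursor from which a hairpin is cut, and each arm of the hairpin can give a mature microRNA of about the length of a small RNA read. The mature microRNA guides Argonaute proteins to messenger RNAs that pair with its seed, bases 2 to 8. Mir126a is known for its expression in endothelial cells together with its host Egfl7, a secreted factor of blood vessels, where it represses Spred1 and, in human endothelial cells, also PIK3R2, inhibitors of signalling downstream of the VEGF receptor. It is also made in platelets, their precursors and blood progenitors. Mir126b is annotated on the other strand of the same bases, and its function is not described here.

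In the mm10 assembly, the hairpin of Mir126a (ENSMUSG00000065540.1) lies at chr2:26591357-26591429 on the forward strand and that of Mir126b (ENSMUSG00000105799.1) at chr2:26591363-26591420 on the reverse strand. The sequences are shown because the strand assignment of the reads turns on them. They were taken from RefSeq (GRCm38.p6, the same assembly), in which both genes were matched, and are written 5′ to 3′. In the Mir126a hairpin the capitals mark the bases that lie opposite the Mir126b hairpin.
Mir126a hairpin: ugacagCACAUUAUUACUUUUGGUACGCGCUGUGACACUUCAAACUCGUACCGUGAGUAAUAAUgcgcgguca
Mir126b hairpin: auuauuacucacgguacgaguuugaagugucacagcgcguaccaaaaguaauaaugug
In the listed mature microRNAs, the capitals mark the seed.
miR-126a-3p: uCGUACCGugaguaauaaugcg
miR-126b-5p: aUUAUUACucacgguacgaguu
miR-126b-3p: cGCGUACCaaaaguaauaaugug

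All 58 bases of the Mir126b hairpin were the reverse complement of bases 7 to 64 of the 73-base Mir126a hairpin, counted from its 5′ end. Only 15 bases of Mir126a, 6 before and 9 after, lay opposite no base of Mir126b. The mature miR-126a-3p, bases 46 to 67 of the hairpin, lay opposite Mir126b over 19 of its 22 bases. The seeds of the 3 listed mature microRNAs differed from each other, and among 1738 mature mouse microRNAs in the RefSeq table no other shared any of them. Among 141767 GENCODE transcripts, exact matches to these mature sequences, searched on both strands, lay in the hairpins themselves and in Egfl7-206 and in no other transcript. No mature microRNA of the 5′ arm of Mir126a was listed in the source used, so that arm was not part of these searches. The Mir126a hairpin shared a stretch of 18 bases with no microRNA gene but Mir126b. The predicted fold of Mir126a had a minimum free energy of -31.2 kcal/mol and that of Mir126b -19.3 kcal/mol. Per base, the fold of Mir126a was stronger than that of 70.8% of all hairpins in the tables and that of Mir126b stronger than 38.8%. GC content was 45.2% in Mir126a and 39.7% in Mir126b, beside a median of 50.8% over all hairpins.

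Egfl7 spans chr2:26580014-26593120 on the forward strand, so Mir126a runs with its host and Mir126b against it. Of 19 annotated Egfl7 transcripts, 8 held the hairpins in an intron. In Egfl7-201, a coding transcript of 10 exons, they lay in intron 7, which is 600 bases long. In Egfl7-206, a non-coding transcript with a retained intron, they lay in exon 4, and the other 10 transcripts did not span them. The coding gene Gm20532 also covers this region on the forward strand. The nearest annotated microRNA genes were Mir6996, 121237 bases upstream, and Gm24049, 810422 bases downstream. Mir6996 had 3 reads in replicate 2 and 1 in replicate 1, and Gm24049 had 0 and 2. The next microRNA genes in either direction were thus at the edge of detection.

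**Figure D1:**
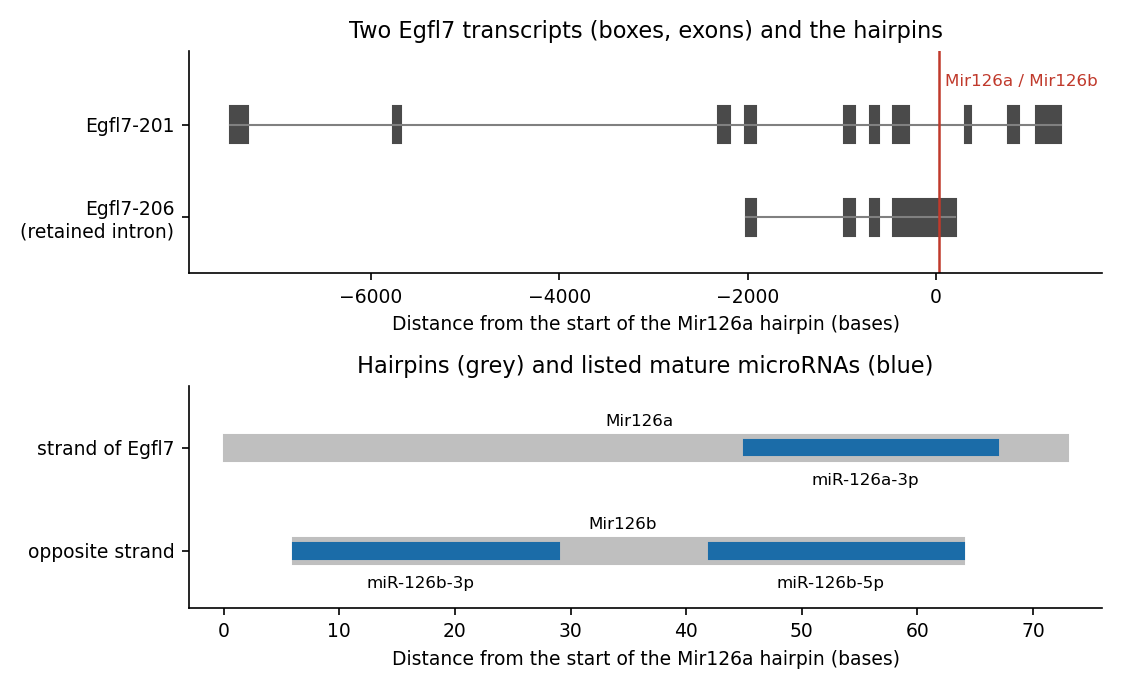
Map of the Mir126a and Mir126b locus to scale, with distance in bases from the start of the Mir126a hairpin on the x axis. The upper panel shows the exons of Egfl7-201 and Egfl7-206 as boxes, with the hairpins in intron 7 and exon 4, and the lower panel shows that the 58-base Mir126b hairpin and its mature microRNAs lie within the 73 bases of Mir126a on the other strand.

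On the gene strand, 5429127 reads were counted in replicate 2 and 1573213 in replicate 1, and levels are given as CPM, reads per 1000000 of this total. A read of a mature microRNA covers most of it, so counts were not divided by length. A count of 0, which allows up to 3 reads, set a floor of 0.553 CPM in replicate 2, against 1.91 CPM in replicate 1. Intervals and floors cover counting error only. Several-place alignments took 69.7% of the reads of replicate 2 and 68.6% of those of replicate 1 and were counted for no gene. Levels here are thus shares of the uniquely placed microRNA reads. Egfl7 and other messenger RNAs were not measured, so the endothelial source of Mir126a could not be checked against markers other than microRNA genes. In bulk tissue, fewer cells of a type and less RNA per cell cannot be told apart.

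By uniquely placed reads, Mir126a was among the most abundant microRNA genes of the muscle. It had 561194 reads in replicate 2, or 103367 CPM (exact 95% interval 103111 to 103624). In replicate 1 it had 146825 reads, or 93328 CPM (92874 to 93784). The counting error was thus far below the gap of 10039 CPM between the libraries. Mir126a held 10.3% of gene-strand reads in replicate 2 and 9.33% in replicate 1. As a share of all aligned reads it held 2.48% in replicate 2 and 2.17% in replicate 1. Its level was 837 times the median of detected genes in replicate 2 and 703 times in replicate 1, where 324 of 2202 genes, 14.7%, were detected at 2 CPM or more in both libraries. On chromosome 2, which holds 259 of the genes, Mir126a alone gave 86.2% of the reads in replicate 2 and 84.2% in replicate 1. The next gene on chromosome 2 was Mir10b, a microRNA of the Hoxd cluster, with a mean of 10502 ± 25.3 CPM (SD, n = 2). Among the 149 detected genes that lie within a protein-coding gene on its strand, Mir126a ranked second by mean level.

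Mir126b was at the limit of detection. It had 1 read on its own strand in each library, which is 0.184 CPM in replicate 2 (exact 95% interval 0.00466 to 1.03) and 0.636 CPM in replicate 1 (0.0161 to 3.54). Both values lay below the floor of their library, and the difference between them is that of the library totals. Mir126a reads outnumbered Mir126b reads 561194 to 1 in replicate 2 and 146825 to 1 in replicate 1. From the counting intervals this ratio was at least 100723 in replicate 2 and at least 26352 in replicate 1.

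The single Mir126b reads could not be told apart from the reads that other abundant genes had on their opposite strand. Mir126b made up 1.78 per 1000000 reads of both strands of the locus in replicate 2 (exact 95% interval 0.0451 to 9.93) and 6.81 per 1000000 reads in replicate 1 (0.172 to 37.9). Genes that overlap no other microRNA gene and had at least 10000 reads gave the background. In replicate 2, 44 such genes had 14 opposite-strand reads together, 3.69 per 1000000 reads (2.02 to 6.19). In replicate 1, 22 such genes had 2, which is 2.02 per 1000000 reads (0.245 to 7.30). The intervals of Mir126b and of these genes overlapped in both libraries, so an excess of Mir126b over the opposite-strand background was not detectable at this depth. Of the background genes, 40 of 44 in replicate 2 and 21 of 22 in replicate 1 had no such read. The 4 and 1 genes with reads had fewer gene-strand reads than Mir126a. Even 1 opposite-strand read would give them a larger share than Mir126b, so their shares were not compared with it.

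Other loci with microRNA genes on both strands differed in the reads of their weaker gene. Of the 21 loci whose stronger gene had at least 100 reads in both libraries, 13 had no read of the weaker gene in either library and 5, among them Mir126a with Mir126b, had at least 1 in both. In 4 of them the weaker gene held a larger share than Mir126b in both libraries, but their stronger genes had far fewer reads than Mir126a. Even 1 read of the weaker gene would be a larger share there, so the read totals fixed this comparison. Mir3107, opposite the erythroid and muscle gene Mir486, had 55 reads in replicate 2 and 12 in replicate 1, or 13935 per 1000000 reads of its locus (exact 95% interval 10514 to 18100) and 11583 (5999 to 20146). Mir3544, opposite Mir337 of the Dlk1-Dio3 cluster, had 36 and 5 reads, or 2487 (1742 to 3441) and 1293 per 1000000 reads (420 to 3015). Mir3065, opposite the glial gene Mir338, had 4 and 3 reads. Mir1b, opposite the muscle gene Mir1a-2, had 6 and 1, and the interval of its share in replicate 1 was 42.5 to 9313 per 1000000 reads. All these shares are of uniquely placed reads. Mir1a-2 shares a stretch of 18 bases with 2 genes of the tables and can lose reads to several-place alignment, which would change the share of Mir1b. The intervals of all 4 lay above that of Mir126b in both libraries, but these loci were picked for their larger shares. In replicate 1, Mir1b and Mir126b had 1 read each, so the read totals alone set their intervals apart. No conclusion is drawn from these intervals. These loci were named after their values were seen. Over all genes that overlap no other microRNA gene, opposite-strand reads made up 19.2 per 1000000 in replicate 2 (79 reads) and 47.7 in replicate 1 (58 reads). Among less abundant genes, Mir203, opposite no microRNA gene, had 25 such reads beside 1179 gene-strand reads in replicate 2. In replicate 1 it had 43 beside 567, so this 1 gene gave most of the 58 reads there and 25 of the 79 in replicate 2. Whether the 4 weaker genes exceeded the background of genes at their level was not tested.

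The tables also count reads without regard to strand, and in that column Mir126a almost vanished. Its either-strand count was 9 in replicate 2 and 3 in replicate 1, which is 0.00160% (exact 95% interval 0.000733 to 0.00304) and 0.00204% (0.000421 to 0.00597) of its gene-strand count. In CPM over that column, its level was 2.19 in replicate 2 and 2.47 in replicate 1. By mean level it then ranked 326 of 2202 genes, against 2 on the gene strand. Mir126b was at 0 in the either-strand column in both libraries.

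The columns account for these reads exactly. On the strand opposite to Mir126b, 561185 reads were counted in replicate 2 and 146822 in replicate 1, and these are 9 and 3 fewer than the gene-strand count of Mir126a. The same 9 and 3 reads were left to Mir126a when strand was ignored. They touched Mir126a without touching Mir126b, and every other Mir126a read touched both genes. Mir126a itself had 1 read on its opposite strand in each library, the number counted for Mir126b. The reads that overlapped both genes are part of the ambiguous tally of the either-strand column, of which Mir126a made up 42.6% in replicate 2 and 41.2% in replicate 1. Since both arms of the Mir126a hairpin lie opposite Mir126b, the counts do not show which arm the reads came from.

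**Figure D2:**
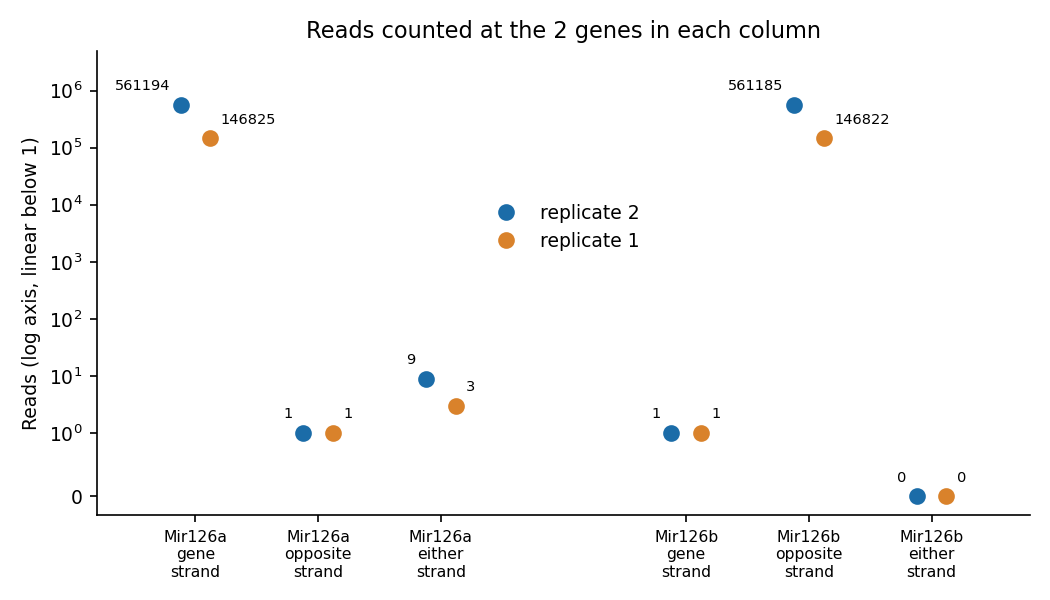
Reads counted for Mir126a and Mir126b (x axis, by column of the tables) in replicate 2 and replicate 1, on a log axis that is linear below 1. The 561194 and 146825 gene-strand reads of Mir126a reappear, less 9 and 3, on the opposite strand of Mir126b, and the either-strand column keeps only those 9 and 3.

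The loss was shared by all abundant genes with a microRNA gene opposite them. Of 192 genes with at least 100 gene-strand reads in both libraries, 21, or 10.9%, kept less than 50% of them when strand was ignored. All 21 lie opposite another annotated microRNA gene, and no gene without such a partner kept less than 100%. This split follows from the counting. Reads over 2 genes went to the ambiguous tally, and a gene that overlaps no other cannot lose reads when strand is ignored. In 20 of the 21 the either-strand count was 0 in both libraries, and Mir126a was the exception with its 9 and 3 reads. The 5 most abundant others were Mir378a, a microRNA of an intron of the metabolic coactivator gene Ppargc1b, Mir30e, Mir191, Mir299a of the Dlk1-Dio3 cluster and Mirlet7e. Mir378a had 560765 reads in replicate 2 and 148079 in replicate 1, and its partner Gm25301 had 1 and 0. Mir30e had 75121 and 24149 reads and its partner Mir30f none. Mir299b, opposite Mir299a, had 5 reads in replicate 2, or 249 per 1000000 reads of its locus (exact 95% interval 80.8 to 580), and none in replicate 1. Genes that overlap another on the opposite strand held 24.3% of all gene-strand reads in replicate 2 and 22.7% in replicate 1.

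**Figure D3:**
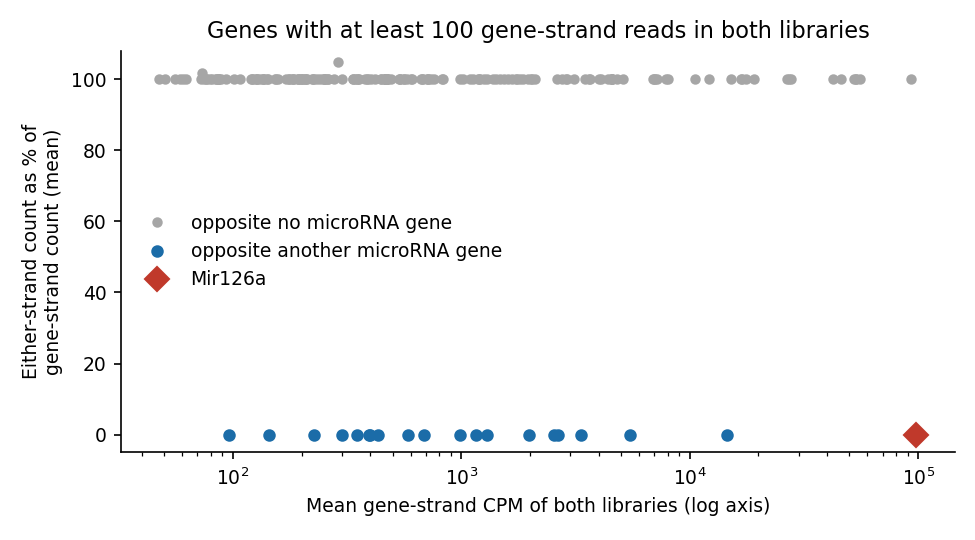
Either-strand count as a percentage of the gene-strand count (y axis, mean of both libraries) against mean gene-strand CPM (x axis, log scale) for 192 genes. The 21 genes opposite another microRNA gene, Mir126a among them, lie at or next to 0, and the others lie at 100% or slightly above, where reads on the opposite strand were added.

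In the order of levels, Mir126a stood among the 3 leading genes in both libraries, at rank 1 in replicate 2 and rank 3 in replicate 1. These ranks hold for uniquely placed reads, since genes with near-identical copies can lose reads to several-place alignment. By mean level the order was Mir378a at 98707 ± 6479 CPM, Mir126a at 98348 ± 7099 CPM, and Mir143, a microRNA of smooth muscle, pericytes and fibroblasts, at 93431 ± 48308 CPM (SD, n = 2 each). These neighbours did not differ beyond their spread. Mir126a made up 50.02% of the reads of Mir126a and Mir378a together in replicate 2 (exact 95% interval 49.93 to 50.11) and 49.79% in replicate 1 (49.61 to 49.97). With Mir143 as the other gene, it made up 63.6% in replicate 2 and 42.2% in replicate 1, so their order was opposite in the libraries. Below them came Mir23a at 55454 ± 4874 CPM, Mir206 of skeletal muscle at 53673 ± 26600 CPM, Mir22 at 53408 ± 6044 CPM and Mirlet7g at 52398 ± 395 CPM, each lower than Mir126a in both libraries. Mir378a, Mir143, Mir23a, Mir22 and Mirlet7g were the 5 genes most alike to Mir126a in level, by the larger of its absolute log2 differences in the 2 libraries. That difference was 0.01 for Mir378a, 0.80 for Mir143, 0.84 for Mir23a, 0.93 for Mir22 and 0.97 for Mirlet7g. No gene but Mir378a was thus within 1.5-fold of Mir126a in both libraries.

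**Figure D4:**
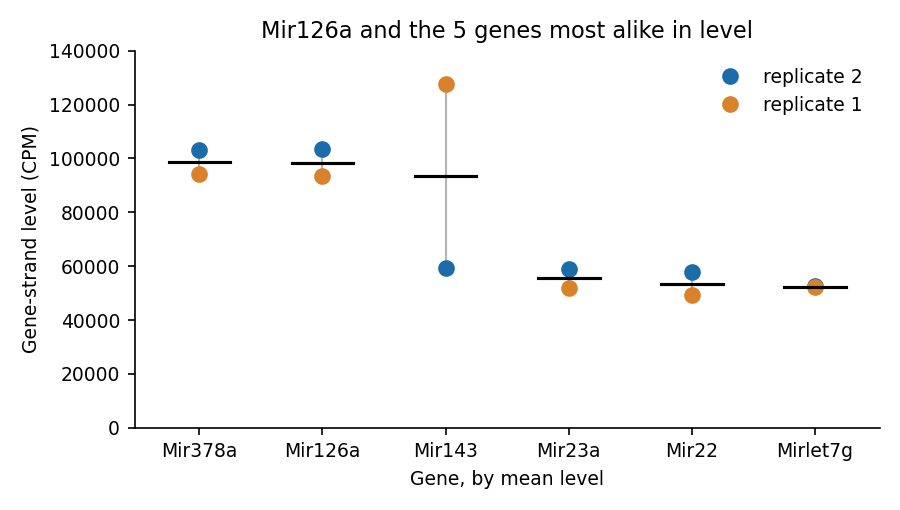
Gene-strand level in CPM (y axis) of Mir126a and the 5 genes most alike in level (x axis, by mean level), with replicate 2 and replicate 1 as points and the mean as a bar. Mir126a and Mir378a lie together in both libraries, while Mir143 is at 59272 CPM in replicate 2, against 127590 CPM in replicate 1.

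Mir126a was 1.11-fold higher in replicate 2 than in replicate 1. The log2 ratio was 0.15 (exact 95% interval 0.14 to 0.16), with an adjusted p of 1.00e-269 in a two-sided exact binomial test over 364 genes with Benjamini-Hochberg adjustment. That test covers counting error alone and compares 2 libraries, not conditions, and 45.3% of the genes tested passed it, 15.1% higher and 30.2% lower in replicate 2. The common biological coefficient of variation, estimated with edgeR over 324 genes, was 24.5%. For 1 gene this gives an SD of 0.50 for the log2 ratio between 2 libraries. The difference in Mir126a lay within that SD, and 74.5% of the genes tested had a larger absolute log2 ratio. The ratio kept its sign under other scalings, at 0.23 with TMM and 0.28 with DESeq2 size factors. The median log2 ratio of detected genes was -0.15 with library totals, -0.07 with TMM and -0.02 with DESeq2 size factors. Each scaling moves all genes by 1 constant, so the gap between Mir126a and the median gene is the same under all of them. Mir126b, with 2 reads in all, was not tested.

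Other genes linked to endothelium were detected at lower levels and differed between the libraries in both directions. A list of 24 such genes, drawn up with earlier results of these data known, held 20 detected genes, or 20 of 24, beside the 14.7% detected among all genes. Without Mir126a and Mir126b it held 19 of 22. The lists of other cell types used below had 2 of 2, 3 of 4, 3 of 3, 2 of 2 and 9 of 9 genes detected. Of the 24 genes, 12 share a stretch of 18 bases, on either strand, with another gene of the tables, as do 1179 of all 2202 genes. Such genes can lose reads to several-place alignment. Mir126a and Mir126b, counted among the 12, share theirs only with each other at the same place. Without Mir126a and Mir126b, the other 22 genes summed to 137526 CPM in replicate 2, against 130237 CPM in replicate 1. Mir23a and Mir23b carried most of this sum, and without them the remaining 20 genes summed to 31095 CPM in replicate 2, against 34091 CPM in replicate 1, the opposite direction. The list overlaps those of other tissues, since Mir23a, Mir23b, Mir27a and Mir27b are made in many cell types. Mir126a was 1.75 times Mir23a in replicate 2 and 1.79 times in replicate 1, and 2.17 and 2.11 times Mir23b. Against Mir10b it was 9.83 times as high in replicate 2 and 8.90 times in replicate 1.

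Of 22 list members tested between the libraries, 4 were higher in replicate 2, 9 were lower and 9 did not pass the exact binomial test. Among all 364 genes tested, 15.1% were higher and 30.2% lower. The median log2 ratio of the list was -0.25, beside -0.15 for all genes tested. With TMM the split was 7 higher and 7 lower, with a median of -0.17, and with DESeq2 size factors 8 higher and 7 lower, with a median of -0.12. Over all genes, 54.3% of the calls were higher in replicate 2 with DESeq2 size factors, 45.8% with TMM and 33.3% with library totals. The 4 higher genes were Mir126a, Mir23a at 58901 CPM in replicate 2, against 52008 CPM in replicate 1, Mir23b and Mir27b. Mir221 and Mir222, neighbours on the X chromosome that in human endothelial cells target the receptor KIT, were lower in replicate 2. Mir221 had 324 CPM in replicate 2, against 622 CPM in replicate 1, a log2 ratio of -0.94 (exact 95% interval -1.05 to -0.82). Mir222 had 52.9 CPM in replicate 2, against 96.6 CPM in replicate 1, a log2 ratio of -0.87. Of the Mir17 cluster, Mir17, Mir18 and Mir20a were lower in replicate 2, with log2 ratios of -0.33, -0.36 and -0.55, while Mir92-1 had 412 CPM in replicate 2, against 390 CPM in replicate 1, and passed with TMM and DESeq2 scaling but not with library totals. Mir10a, of the Hoxb cluster, had 3949 CPM in replicate 2, against 5149 CPM in replicate 1 and passed, as did Mir130a, at 3970 and 4825 CPM. Mir132, and Mir210, which is induced by low oxygen, were lower in replicate 2 with library totals, with adjusted p of 0.0116 and 0.0223 in the exact binomial test. Neither passed with TMM (0.0870 and 0.0698) or with DESeq2 size factors (0.220 and 0.133) in the exact test. Mir24-2, which shares its mature microRNA with Mir24-1 and lies opposite Mir3074-2, had 410 CPM in replicate 2, against 384 CPM in replicate 1. Mir27a had 1284 and 1311 CPM, Mir24-1 32.8 and 30.5 CPM, and Mir296 40.3 and 47.0 CPM, and these 4 did not pass with library totals. Neither did Mir10b, of the Hoxd cluster, with an adjusted p of 0.840 in the exact binomial test. With TMM and with DESeq2 size factors, Mir10b and Mir24-2 passed as higher in replicate 2, and Mir27a did so with DESeq2 size factors. Mir19a, Mir19b-1 and Mir218-1 did not reach 2 CPM in both libraries, and Mir218-2 had 3.32 CPM in replicate 2, against 6.99 CPM in replicate 1.

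**Figure D5:**
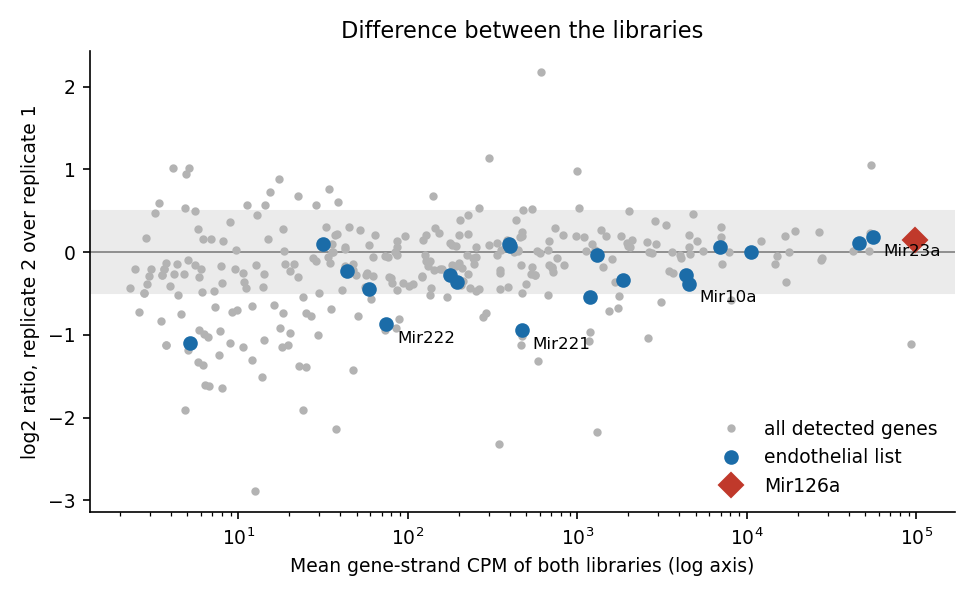
Log2 ratio of replicate 2 over replicate 1 (y axis) against mean gene-strand CPM (x axis, log scale) for all detected genes and for detected members of the endothelial list. The grey band is 1 SD, 0.50, of the log2 ratio of a single gene. Mir126a, at 0.15, lies inside the band at the right edge, and Mir221 and Mir222 lie below it.

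Markers of other cell types also differed between the libraries, many with larger ratios than Mir126a, as did 74.5% of all genes tested. Those of smooth muscle and pericytes, Mir143 and Mir145a, were both lower in replicate 2 and summed to 60989 CPM in replicate 2, against 131120 CPM in replicate 1. The skeletal muscle list of 9 genes, nearly all from Mir206, summed to 74995 CPM in replicate 2, against 36362 CPM in replicate 1. Of its members, 6 share a stretch of 18 bases, on either strand, with another gene, and Mir206 does not. Such genes can lose reads to several-place alignment, so the sum does not give the makeup of the list. A stretch shared only with a gene opposite at the same place, as may hold for Mir486 with Mir3107, need not cost reads. In that list 5 genes were higher in replicate 2 and 2 lower, beside 15.1% higher and 30.2% lower among all 364 genes tested. The fibroblast list, led by Mir214, summed to 2433 and 1814 CPM, with Mir214 higher and Mir199b lower in replicate 2 and Mir199a-2 not past the test. Blood, whose platelets also make Mir126a, differed too. The erythroid genes Mir451a and Mir144 summed to 587 CPM in replicate 2, against 2703 CPM in replicate 1, and both were lower in replicate 2. Of the platelet and white blood cell list, Mir223 had 298 CPM in replicate 2, against 406 CPM in replicate 1, Mir142 had 336 and 839 CPM, and Mir150, of lymphocytes, had 579 and 574 CPM. No marker of these lists was at 0 in both libraries, and Mir126a was 347 times Mir223 in replicate 2 and 230 times in replicate 1. The erythroid genes, Mir223 and Mir142 were thus lower, and Mir126a higher, in replicate 2, and Mir150 did not pass with library totals. Their part in the level of Mir126a was not tested.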

How the data were processed

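For each library the authors deposited raw read counts per microRNA gene, in 3 columns without a header. As their values show, the columns ignore strand, follow the gene's strand and take the reverse strand. The first 4 rows are tallies of unassigned reads and were left out of library totals. The labels give mm10 and a size range below 30, and the deposited readme files name GENCODE M21. The aligner, counter and filters were not given in the sources used here. Each of the 2202 identifiers matched GENCODE M21. Gene-strand counts were scaled to CPM over all gene rows. Shares have exact (Clopper-Pearson) 95% intervals. Libraries were compared by a two-sided exact binomial test on genes with 10 or more reads summed over both libraries, with library totals as odds. Benjamini-Hochberg adjustment was applied at 0.05, and ratios had an offset of 0.5 counts. The test was first checked on simulated counts with counting error as the only noise, so the check does not cover the spread between libraries. edgeR 4.0.16 and DESeq2 1.42.0 in R 4.3.3 gave dispersion and scaling over the 324 detected genes, and RNAfold 2.7.2 gave hairpin energies. Python 3.11.15, pandas 2.3.3, scipy 1.17.1 and matplotlib 3.10.9 served for the rest. Replicate 2 held 24096793 reads and replicate 1 held 7367359. The members and lists were chosen with earlier results of these data known. Most genes were named by rule: the members, genes sharing their seeds, the 5 most alike in level, genes above Mir126a, the 5 most abundant genes opposite another, the nearest microRNA genes and list members. The other loci with reads of the weaker gene in both libraries were named outside these rules, after their values were seen. Mir203 was also named outside these rules. Mir18a and Mir92a-1 were matched by older symbols, as Mir18 and Mir92-1, and 1 listed name, Mir142hg, has no microRNA gene row.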

Additional observations from a re-analysis of the deposited data

How the results depend on the processing

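The level of Mir126a depended on strand and denominator. Its mean was 2.33 CPM with the either-strand column, at rank 326, 23224 CPM with all aligned reads as denominator and 115242 CPM over gene rows without Mir143 and Mir206, and Mir126b was at 0 CPM in the either-strand column. Leaving out 1 replicate gave 93328 to 103367 CPM and rank 1 to 3 for Mir126a, and 0.184 to 0.636 CPM for Mir126b. With DESeq2 size factors 95 genes were higher in replicate 2, against 55, and with a minimum of 1000 reads 13 genes lost most of their count when strand was ignored, against 21. The other 34 alternative values, among them the log2 ratio of Mir126a at 0.10 to 0.28, kept their direction and stayed within the spread between the libraries or 1.5 times the count. No paired analysis was possible because there was 1 group. Depth limits Mir126b, which lay below the floor in both libraries.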
